A study of Mus musculus with 6 samples.

Results

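The hydrolases and peptidases of the intestinal brush border were read in the entire small intestine of 6 mice, 3 Cftr control (+/+) and 3 Cftr null (-/-). The genes were Lct, Akp3, Mme, Ace, Anpep, Dpp4, Mep1a, Mep1b, Enpep and Treh, and their probe sets were those whose symbol in the platform annotation was exactly one of these names. Of the 10, 9 had a probe set among the 8251 genes with a symbol of their own, and Treh, the trehalose-splitting enzyme, was not analysed here. These 9 genes had 13 probe sets. All mice were 40 days old and congenic on the black6 background, and all, controls included, had been fed Peptamen, a peptide-based liquid diet, from day 10 of life to keep the gut from blocking. Each array held the total RNA of 1 mouse, and each group held 2 males and 1 female, the females being control replicate 3 and null replicate 2. The labels give the Cftr genotype but not how the allele was made.

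The brush border is the layer of microvilli on the surface of absorptive enterocytes. Enzymes anchored in its membrane carry out the last steps of digestion: disaccharidases split sugars, peptidases trim peptides to amino acids, dipeptides and tripeptides, and alkaline phosphatase removes phosphate groups, including those of bacterial lipopolysaccharide. Most of these enzymes appear as enterocytes leave the crypt and mature along the villus, and lactase is highest in the suckling animal and declines around weaning.

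The regulatory windows of 3 of the genes with large differences are shown here because lactase and alkaline phosphatase are among the textbook targets of the intestinal factors of the Cdx, Gata and Hnf4 families; no measurement of this study was made on the windows themselves. Each is the 250 bases before the annotated start, from RefSeq on build GRCm38.p6, written 5′ to 3′ on the gene's strand, with matches to the searched letters in capitals. Lct lies on the minus strand at chr1:128328319-128328568, Akp3 on the plus strand at chr1:87124704-87124953, and the upstream one of 2 Ace starts on the plus strand at chr11:105967698-105967947.
Lct: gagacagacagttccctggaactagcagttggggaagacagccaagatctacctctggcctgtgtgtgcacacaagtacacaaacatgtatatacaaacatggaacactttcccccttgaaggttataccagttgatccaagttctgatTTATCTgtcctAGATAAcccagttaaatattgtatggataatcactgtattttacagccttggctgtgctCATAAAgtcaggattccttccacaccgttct
Akp3: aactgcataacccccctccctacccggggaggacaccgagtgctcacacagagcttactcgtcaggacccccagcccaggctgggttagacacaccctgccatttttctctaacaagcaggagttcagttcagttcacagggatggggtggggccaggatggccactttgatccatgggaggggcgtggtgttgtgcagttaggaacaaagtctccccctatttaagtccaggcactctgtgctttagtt
Ace: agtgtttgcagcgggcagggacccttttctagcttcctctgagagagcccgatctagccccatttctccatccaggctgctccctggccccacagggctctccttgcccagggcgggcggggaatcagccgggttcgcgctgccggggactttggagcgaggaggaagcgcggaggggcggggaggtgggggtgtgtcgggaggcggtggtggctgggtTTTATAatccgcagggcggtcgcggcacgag

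The letters searched, on both strands, were TTTATG for Cdx, AGATAA for Gata factors, CAAAGTCCA for Hnf4 and TATAAA for a TATA box. The Lct window held 2 Gata matches, at 101 to 96 and 90 to 85 bases before the start, and 1 Cdx match at 31 to 26 bases before it. In the Ace window a TATA match lay 31 to 26 bases before the start, and the Akp3 window held none of the 4. Mep1b was left out of the search, an exclusion not applied to the count over all windows given below. Over 11 windows of 8 of the genes, the Cdx letters occurred in 1, the Gata letters in 2 (Lct and Dpp4), the TATA letters in 3 (Ace, Dpp4 and Enpep) and the Hnf4 letters in 0. None of the 3 windows of Mme held any of them. Of all 32851 windows of the same length, 10.8% held the Cdx, 9.99% the Gata, 0.384% the Hnf4 and 12.4% the TATA letters. A match is a run of letters and not a site shown to be bound.

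The values are scaled probe set intensities in arbitrary units, with a 2%-trimmed mean between 500.3 and 500.33 on the 6 arrays, and their number limits the precision of every value. The labels do not state whether mice shared litters or handling. The p-values treat the mice as independent, which could not be checked, and would be too small if they were not. The mice carry codes that the labels do not explain: control replicate 1 and null replicate 3 share the beginning of theirs, control replicate 3 and null replicates 1 and 2 share a middle part, and control replicate 2 has neither. Whether these codes mark litters or colonies is not known. Cftr itself was at 801.6, 1018 and 1002 in controls and 325.9, 295.6 and 368.5 in nulls, lower in every mouse labelled null; whether the probes lie inside the altered part of the gene is unknown. The tissue carried the markers of small intestinal epithelium: villin, Vil1, lay between 6960 and 11810 and the fatty acid binding protein Fabp1 between 10846 and 22638 in the 6 mice. Control replicate 2 stood apart in the distal small intestine markers Fabp6 and Fgf15. The ileal bile acid binding protein Fabp6 was at 7441, 100.3 and 6099 in the controls (replicates in the order 1 to 3, here and below) and at 880.2, 2159 and 1116 in the nulls. The ileal hormone Fgf15 was dim, at 152.9, 6.0 and 153.8 in the controls and 148.5, 43.8 and 82.7 in the nulls. For the distal markers Slc51a (4446, 3288 and 6235 in controls) and Cubn (3667, 3183 and 4705), control replicate 2 was also the lowest control, but nearer to the others. Values without control replicate 2 are therefore given below for the genes whose log2 difference moved by more than 0.1, and for Ace.

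In mice lacking Cftr, the alkaline phosphatase Akp3 and the peptidases Mme and Ace fell by 3.84-fold, 4.68-fold and 2.78-fold, and no brush border hydrolase or peptidase rose. Of the 9 genes tested, 3 fell and 0 rose at an adjusted p under 0.05, against a background of 1.99% of all 5717 genes that fell when each was read by its brightest tested probe set, and 1.14% that rose. Lactase had the largest difference of the 9, with null mice that differed widely among themselves, and did not pass. All 9 genes had a difference below 0, with a median log2 difference of -0.72, where the 7601 probe sets tested had a median of 0.03 and 45.7% of them lay below 0. Control and null values did not overlap in 5 of the 9 genes, and 10.8% of all probe sets tested were lower in nulls without overlap. The genes were chosen with earlier results of these data known, so these shares are a description and not a test. In this bulk RNA, fewer enterocytes and less transcript per enterocyte cannot be told apart.

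**Figure D1:**
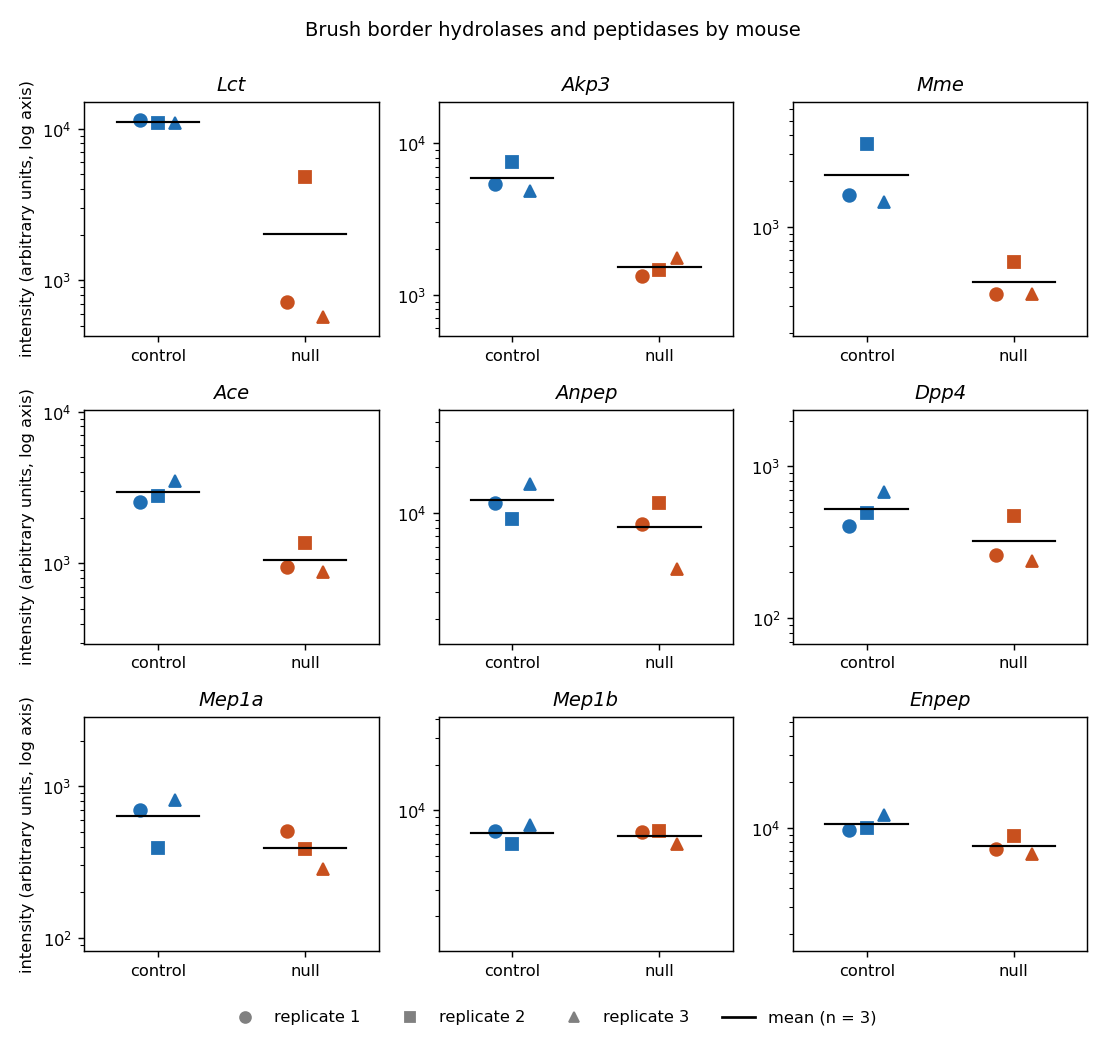
Intensity of the brightest tested probe set of each gene (log axis, arbitrary units) in the 3 control (blue) and 3 null (orange) mice; symbols mark the replicate, lines the group mean (n = 3), and every panel spans the same ratio. Lct, Akp3, Mme, Ace and Enpep have no overlap between groups, and null replicate 2 (the null female) lies far above the other nulls for Lct, at 4816 against 714.5 and 569.1.

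Lct encodes lactase-phlorizin hydrolase, which splits milk sugar into glucose and galactose. Its probe set (104018_at) read 11317, 10928 and 10866 in the controls but 714.5, 4816 and 569.1 in the nulls. The controls were nearly alike, with a ratio of highest to lowest of 1.04, whereas among the nulls that ratio was 8.46. Every null mouse lay below every control, but null replicates 1 and 3 were 15.2-fold and 19.0-fold below the control mean and null replicate 2 only 2.29-fold. Control mice averaged 11037 ± 245 and null mice 2033 ± 2411 (SD, n = 3 each). The fitted log2 difference was -3.12 (SE 0.70; adjusted p = 0.0606), 8.71-fold lower with a 95% interval from 2.84 to 26.8-fold. Among the 7601 probe sets, its difference was rank 6 from the lowest.

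The call for Lct changed with null replicate 2, with the model and with the scaling. Without null replicate 2 the log2 difference was -4.09 (SE 0.14; adjusted p = 8.09e-05), and with sex as a covariate it was -3.12 (SE 0.53; adjusted p = 0.0337). It also passed, with that mouse kept, when the arrays were aligned on microvillus scaffold genes, as described with those genes. Null replicate 2 is the single null female, so that sex and the individual mouse cannot be told apart. The control female, replicate 3, had a Lct level of 10866, close to those of the control males. With the other mice left out one at a time, Lct stayed lower but did not pass, at adjusted p values from 0.12 to 0.195.

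Akp3 encodes an intestinal alkaline phosphatase of the brush border. Its values (102147_at) were 5358, 7511 and 4846 in controls and 1329, 1454 and 1755 in nulls. The 3 nulls lay close together, at a ratio of highest to lowest of 1.32, and null replicate 2 was no exception among them. Akp3 fell 3.84-fold (95% interval 2.84 to 5.18-fold), a log2 difference of -1.94 (SE 0.19; adjusted p = 0.00398), from 5905 ± 1415 to 1513 ± 219 (SD, n = 3). It was the single gene of the 9 that passed in each of the 20 alternative settings. The related intestinal phosphatases Alpi and Akp5 had no probe set of their own in the annotation used, and whether their transcripts add to the Akp3 signal was not tested.

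Mme encodes neprilysin, a zinc metallopeptidase that cleaves small signalling peptides at the cell surface. Its probe set (92331_at) gave 1619, 3541 and 1449 in controls and 358.8, 584.5 and 360.4 in nulls. Control replicate 2 was more than the sum of the other controls, and the nulls again had replicate 2 on top, with no overlap between the groups. Mme fell 4.68-fold (95% interval 2.69 to 8.17-fold; log2 difference -2.23, SE 0.35, adjusted p = 0.0177), and without control replicate 2 the log2 difference was -1.83 (adjusted p = 0.0153). The call was lost on leaving out null replicate 1 (adjusted p = 0.0857) and also on leaving out null replicate 3 (adjusted p = 0.0685).

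Ace encodes angiotensin-converting enzyme, a carboxydipeptidase found on enterocytes and on endothelium. Its brightest probe set (160927_at) read 2557, 2774 and 3497 in controls and 939.3, 1367 and 874.2 in nulls. The lowest control was 1.87-fold above the highest null. Ace fell 2.78-fold (95% interval 2.03 to 3.82-fold; log2 difference -1.48, SE 0.20, adjusted p = 0.011), and the call ended without null replicate 1 (adjusted p = 0.0645). A second, dimmer probe set (161224_f_at) ranked the nulls in the same order, with 652.1, 473.3 and 741.2 in controls and 255.2, 375.7 and 217.0 in nulls. It did not overlap between groups either, but it missed the threshold (log2 difference -1.12, SE 0.24, adjusted p = 0.0524), and its name marks possible cross-hybridization. The third (101428_at) lay at most at 39.5 in any mouse, under the filter level of 109.7, and was not tested.

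Endothelial transcripts can contribute to Ace. Of 8 endothelial markers, all on the array, 7 were tested and 0 passed, 6 had a difference below 0 and the median log2 difference was -0.16. Their summed level, to which Eng gave the most, ran from 2205 to 2586 in controls and from 2071 to 2532 in nulls. Eng, the single one above 0 (860.9, 950.1 and 1113 in controls, 1039, 1271 and 1037 in nulls) and Emcn (305.2, 312.6 and 373.4 against 333.1, 306.8 and 273.0) overlapped between the groups. The part of endothelium in the difference of Ace was not tested.

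**Figure D2:**
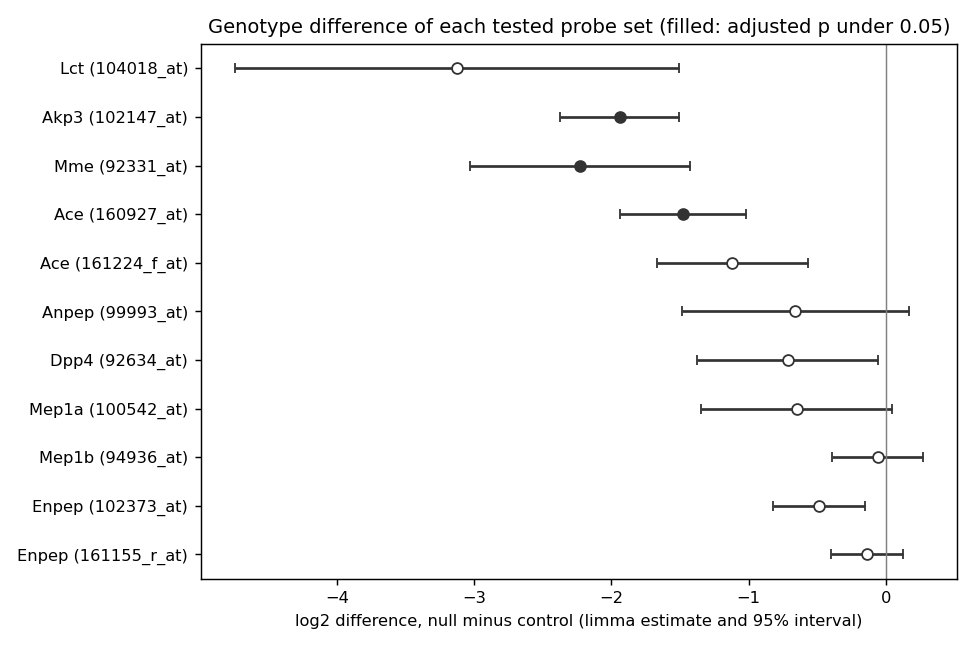
Log2 difference, null minus control, with its 95% interval from limma for each of the 11 tested probe sets of the 9 genes; filled points passed at an adjusted p under 0.05. Akp3, Mme and the brighter Ace probe set passed, Lct has the widest interval, and Mep1b lies at -0.06.

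The remaining peptidases did not pass. Enpep, aminopeptidase A, which removes acidic residues from the amino end of peptides, read 9641, 9971 and 12195 in controls and 7192, 8774 and 6719 in nulls (102373_at). The nulls lay below the controls without overlap, by a narrow margin of 1.10-fold between the lowest control and the highest null. Its log2 difference was -0.49 (SE 0.15, 95% interval -0.82 to -0.15, adjusted p = 0.136). A second probe set (161155_r_at), whose name marks possible cross-hybridization, had a difference of -0.14 (SE 0.11, adjusted p = 0.589).

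Anpep encodes aminopeptidase N, an abundant brush border peptidase that trims neutral residues. It was at 11702, 9084 and 15521 in controls and 8419, 11650 and 4253 in nulls (99993_at). Null replicate 2 lay inside the control range, and null replicate 3 was 2.77-fold below the control mean. The log2 difference was -0.66 (SE 0.36, 95% interval -1.49 to 0.17, adjusted p = 0.394). It was -0.85 without control replicate 2, -0.98 without null replicate 2 and -0.25 without null replicate 3, and passed in none of these.

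Dpp4, the serine peptidase that removes dipeptides from peptides with proline next to the amino end, gave 407.3, 496.5 and 677.0 in controls and 261.7, 472.5 and 237.9 in nulls (92634_at). The groups overlapped only through null replicate 2, which fell inside the control range. The log2 difference was -0.72 (SE 0.28, 95% interval -1.37 to -0.06, adjusted p = 0.249), and without that mouse it was -1.01 (adjusted p = 0.08).

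Mep1a and Mep1b encode the alpha and beta subunits of meprin, a zinc metallopeptidase of the astacin family. Mep1a was at 698.8, 392.2 and 815.8 in controls and 509.1, 385.8 and 284.7 in nulls (100542_at). Control replicate 2 was the lowest control, inside the span of the nulls, and the log2 difference of -0.65 (SE 0.30, adjusted p = 0.319) became -0.96 without it (adjusted p = 0.108). Mep1b was at 7277, 6020 and 8060 in controls and 7143, 7285 and 5999 in nulls (94936_at). Its groups overlapped almost wholly, with 2 of the nulls inside the control range. The log2 difference was -0.06 (SE 0.14), with a 95% interval from -0.39 to 0.27 (adjusted p = 0.87); without control replicate 2 it was -0.17 (adjusted p = 0.51). A second Mep1b probe set (162186_r_at) read between 17.2 and 46.8 and was too dim to be tested.

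**Figure D3:**
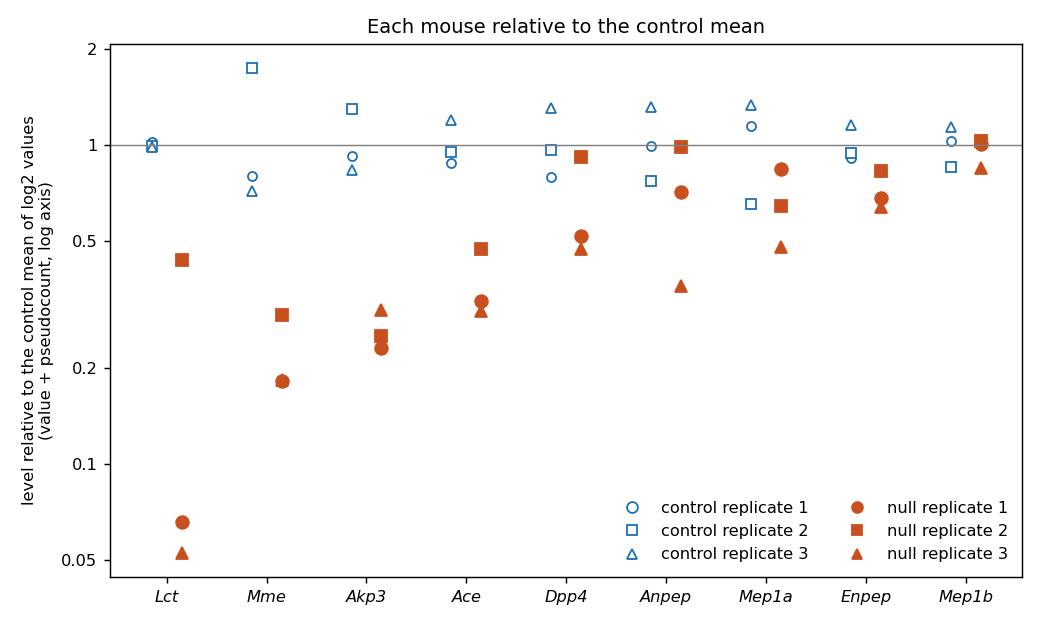
Each mouse's level of each gene divided by the control mean of log2 values (log axis; 1 is the control mean); open blue symbols are controls and filled orange symbols nulls, with genes ordered by the mean of the nulls. Null replicate 2 is the highest null for 7 of the 9 genes, Akp3 and Mep1a being the exceptions.

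The nulls kept a similar order across genes, but the controls did not. Null replicate 2 had the highest null value in 7 of the 9 genes, and null replicate 3 the lowest in 7. Among controls, replicate 3 was highest in 6 and lowest in the other 3 (Lct, Akp3 and Mme), replicate 2 was highest for Akp3 and Mme and lowest for Anpep, Mep1a and Mep1b, and each of the 3 controls was the lowest for 3 genes. The genes are read on the same arrays, so the nulls' shared order is a description of the mice and not independent evidence. The order of the differences ran from Lct through Mme, Akp3 and Ace to Dpp4, Anpep, Mep1a, Enpep and Mep1b. The 95% intervals of neighbours in that order overlapped throughout, and the differences between neighbours were not tested.

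Other enterocyte transcripts gave the setting of these falls. Of 12 small intestinal enterocyte markers, 10 were on the array, all 10 were tested, 0 passed and 9 had a difference below 0, with a median of -0.43. Their summed level ran from 114558 to 134131 in controls and from 76382 to 105781 in nulls, without overlap, and its part in the members' differences was not tested. The lipoproteins Apoa1 (24174 ± 2766 in controls, 22216 ± 2376 in nulls; SD, n = 3) and Apoa4 (23897 ± 2808 and 15673 ± 3437) were the brightest of them. Fabp2, named after its values were seen, had the lowest difference of the list, at 18085 ± 1620 and 7991 ± 4065 without overlap. Its log2 difference was -1.31 (SE 0.34, adjusted p = 0.0938). Summed smooth muscle markers were higher in nulls, at 16858 to 21379 against 9534 to 14317 (8 of 8 tested, median log2 difference 0.35). Among them 1 rose, gamma-2 actin Actg2 (2.55-fold), whose probe set name marks possible cross-hybridization. Summed fibroblast markers were higher in nulls too, at 11508 to 12637 against 9350 to 10329 (7 of 7 tested, 0 passed). Of these Col1a1 and Dcn were brightest, at 2499 against 1825 and 3150 against 2848.

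Microvillus scaffold genes, which build and tether the actin core and apical cytoskeleton, gave another reference; the list also holds keratins of the epithelium at large, and in bulk RNA its genes are not shown to come from the same cells as the hydrolases. Of 16 listed, 10 were tested, 1 fell and 0 rose, with a median of -0.21. The 1 was Pdzk1, a scaffold that tethers membrane transporters, at 3001, 2913 and 3032 in controls and 588.0, 1042 and 332.3 in nulls, 4.98-fold lower (log2 difference -2.32, SE 0.35, adjusted p = 0.0151). With the arrays aligned on the mean of these 10 genes, Lct, Akp3, Mme and Ace all fell, with log2 differences of -2.78, -1.60, -1.89 and -1.14 (adjusted p = 0.0344, 0.0195, 0.033 and 0.0178). The alignment raised the median difference of all probe sets from 0.03 to 0.37, and the probe sets called went from 142 lower (1.87% of those tested) and 86 higher (1.13%) to 54 lower and 381 higher. Pdzk1 was then left out of the alignment, a setting added once the values were known; the same 4 genes fell, the median was 0.15 and 62 probe sets were lower and 85 higher. Mep1b lay above 0 under both alignments, at 0.28 (adjusted p = 0.159) and 0.06, without passing.

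**Figure D4:**
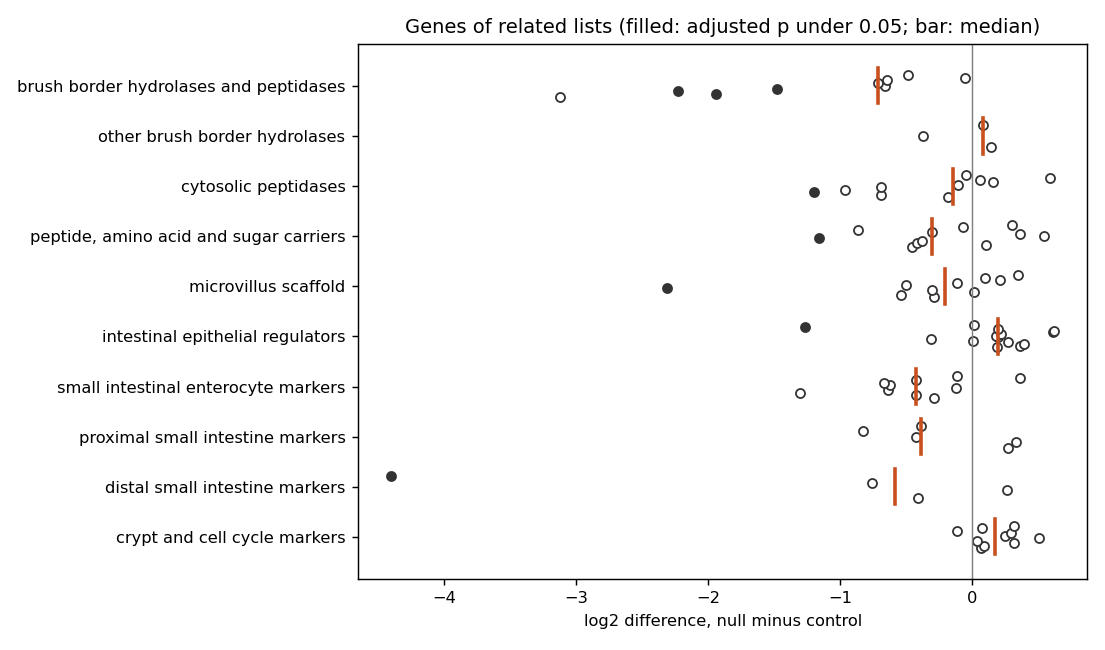
Log2 difference, null minus control, of each tested gene in the brush border hydrolase and peptidase group and in 9 related lists; filled points passed at an adjusted p under 0.05 and bars are list medians. The hydrolases and peptidases have the lowest median, -0.72, and most genes of the other lists lie between -1 and 1. Of those lists Cubn, at -4.40, and Pdzk1, at -2.32, are the farthest from 0. All lists were chosen with earlier results of these data known.

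Few other brush border hydrolases could be read. Of 17 listed, 4 were on the array, 3 were tested and 0 passed. Of these 3, 1 had a difference below 0, and the median log2 difference was 0.08. The dipeptidase Dpep1 was at 1211, 747.7 and 1321 in controls and 802.2, 850.3 and 802.7 in nulls. The nucleotidase Nt5e was at 210.8 ± 37.7 in controls and 229.4 ± 80.2 in nulls (SD, n = 3). Sis and Mgam, the sucrase-isomaltase and maltase-glucoamylase, were not analysed here. Inside the cell, 1 of 10 cytosolic peptidases tested fell and 0 rose (median -0.14). This was Pepd, prolidase, which splits dipeptides that end in proline, at 4007, 3802 and 4194 in controls and 1643, 2528 and 1257 in nulls, 2.30-fold lower (adjusted p = 0.0385); its probe set name marks possible cross-hybridization. Null replicate 2 was again the highest null.

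The carriers that take up the products of digestion mostly did not pass. Of 11 peptide, amino acid and sugar carriers tested, 1 fell and 0 rose (median -0.31). This was Slc7a8, a basolateral carrier of neutral amino acids, at 544.0, 899.0 and 781.3 in controls and 281.0, 379.3 and 302.1 in nulls (log2 difference -1.16, SE 0.21, adjusted p = 0.0288).

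Among 14 intestinal epithelial regulators tested, 1 fell and 0 rose (median 0.19). The lipid-sensing nuclear receptor Ppara fell 2.41-fold, from 1321 ± 316 to 534.6 ± 76.9 (SD, n = 3; adjusted p = 0.0151). Factors of the families named above for lactase and alkaline phosphatase did not pass. Cdx2 was dim, at 115.1, 160.2 and 173.6 in controls and 258.7, 139.9 and 197.6 in nulls. Gata4 was at 696.5, 1420 and 640.2 in controls and 956.7, 1144 and 1026 in nulls. Hnf4a was at 523.0, 1479 and 638.8 in controls and 897.6, 668.0 and 1878 in nulls. Cdx1, Gata5 and Gata6 had log2 differences of 0.18, 0.006 and -0.32. These Cdx, Gata and Hnf4 factors and the repressor Prdm1, which holds back the adult enterocyte programme before weaning, were chosen after their values were seen. Prdm1 was at 113.1, 148.7 and 111.3 in controls and 198.0, 153.4 and 242.6 in nulls (log2 difference 0.61, SE 0.23, adjusted p = 0.232).

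Position along the gut was read through regional markers. Of 5 proximal markers tested, 0 passed and 3 had a difference below 0 (median -0.39). The 2 brightest were Fabp1, at 19902 ± 2700 in controls and 15048 ± 3730 in nulls, and the hormone Gip, at 1717 ± 171 and 980.4 ± 237.3 (SD, n = 3). Gata4 and Pdx1 went the other way, at log2 differences of 0.27 and 0.33. Of 4 distal markers tested, Cubn, the cobalamin receptor cubilin, fell 21.1-fold (adjusted p = 0.00386) and 0 rose. The distal markers summed to 15761, 6581 and 17263 in controls and 3635, 5786 and 3751 in nulls. Of these sums, Fabp6 gave 7441, 100.3 and 6099 in the controls. Control replicate 2, with its low distal sum, had the highest control values of Akp3 and Mme; whether the stretch of gut sampled had a part in this was not tested. Without that mouse Akp3 fell by 1.75 on the log2 scale (adjusted p = 0.00699) and Ace by 1.51 (adjusted p = 0.0273).

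Crypt and cell cycle markers gave 0 calls among 10 tested (median 0.17); the brightest were Ccnb2, at 1847 in controls and 2609 in nulls, and Pcna, at 1947 and 1985. Several members are also made by blood cells. Of 9 macrophage and granulocyte markers, 5 were tested and 1 fell, the lysozyme Lyz2 (6598 ± 1342 and 3687 ± 216; adjusted p = 0.0437), and 0 rose. The other 4 did not pass and differed in sign: 2 had a difference below 0, while the nulls lay above the controls without overlap for Cd14 (831.7 ± 109.1 in controls, 1139 ± 29.2 in nulls; SD, n = 3; adjusted p = 0.122) and Cd68 (352.0 ± 44.0 and 418.0 ± 11.4; adjusted p = 0.397), named after their values were seen, and the list's median log2 difference was -0.08. Lyz2 gave the largest part of the list's sum, which ran from 7980 to 10330 in controls and from 6860 to 7160 in nulls. The related lysozyme Lyz1, listed here as a Paneth cell marker, had no probe set of its own in the annotation used. Whether its transcript adds to the Lyz2 signal was not tested. Of 8 T cell markers on the array only Cd4 was bright enough to be tested, at 236.8 in controls and 222.7 in nulls, and the list summed to at most 746.6. The part of these cells in the differences of Anpep and Dpp4 was not tested. Of 4 B and plasma cell markers tested 1 rose, the immunoglobulin joining chain Jchain (1.73-fold). Of 5 exocrine pancreas markers, 6 goblet cell markers and 8 enteroendocrine markers tested, 0 passed in each. Their median log2 differences were -0.19, 0.12 and -0.51. Of the enteroendocrine markers 6 had a difference below 0. Their summed level did not overlap, at 10831 to 12762 in controls and 7330 to 9691 in nulls. Cel was at 609.1 in controls and 617.5 in nulls, Ctrb1 at 1199 and 1081, Tff3 at 18058 and 17302, and Clca1 at 15682 and 19034. Chgb was at 2528 in controls and 1648 in nulls, and Sct at 3828 and 3316. The probe set names of Ctrb1, Clca1, Chgb and Sct mark possible cross-hybridization. Of 3 Paneth cell markers tested 1 rose, the pentraxin Mptx1 (2.31-fold).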

How the data were processed

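Deposited probe set intensity values of 6 one-colour Affymetrix arrays, 1 mouse each, were used; the table was already scaled when the authors deposited it, and the program that made it is not given in the sources read here. RNA was prepared with TRIzol, per the labels. Of 12488 probe sets, 66 controls (AFFX) were set aside; 10833 of the rest had 1 gene symbol, 396 had several and were not named, and RefSeq changed 0 symbols. Values were turned into log2(value + 12), the pseudocount being the 10th percentile; folds are on that scale and understate changes of dim genes. Probe sets above 109.7, the 40th percentile, in at least 3 arrays were tested (7601) with limma 3.58.1 in R 4.3.3 (lmFit, then eBayes with its trend option). Tests were two-sided, and p-values were adjusted by Benjamini-Hochberg over all of them, with a threshold of 0.05. Intervals (95%) are not adjusted. A gene was read by its brightest tested probe set. The scripts were tested on simulated data.

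The members and the 19 related lists were chosen with earlier results of these data known. Named from each list were up to 4 genes past the threshold, or the 2 brightest, besides all members and their probe sets, Cftr, and the 3 genes most like Lct. Vil1, Fabp2, Fabp6, Fgf15, Slc51a, Pdx1, Cdx1, Cdx2, Gata4, Gata5, Gata6, Hnf4a, Prdm1, Cd14 and Cd68 were added after their values were seen. Alternatives were quantile and median scaling, alignment on microvillus scaffold genes, a pseudocount of 3 or 48, dropping the filter or raising it to 288.7 (60th percentile), eBayes without trend or robust, males alone or sex in the model, averaging each gene's probe sets, dropping those whose names carry a letter, and leaving out each mouse. Coordinates of genes are not given, as the array table names no build; those of the windows are RefSeq's.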

Additional observations from a re-analysis of the deposited data

How the results depend on the processing

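Under the alternatives tried, the members that fell numbered 3 or 4 in every setting that kept all 6 mice or the 4 males; leaving out 1 mouse gave from 1 to 4, the 1 being Akp3 without null replicate 1. Lct passed in 5 of its alternatives. Mep1b, never past the threshold, turned above 0 at 0.28 and 0.063 under the 2 scaffold alignments, and ran from -0.17 to 0.035 with 1 mouse left out, above 0 without control replicate 3 and without null replicate 3 (0.029). Of all probe sets, 228 were called; eBayes without trend gave 141, males only 135, and the scaffold alignment 435 and, without Pdzk1, 147. Leaving out 1 mouse gave from 52 to 182: 76 without control replicate 1, 52 without null replicate 1 and 84 without null replicate 3. Of the genes of the related lists 6 fell; 3 did with eBayes without trend, 3 in males only and 3 with the scaffold alignment, and from 1 to 8 with 1 mouse left out. Of those genes 3 rose (Actg2, Jchain and Mptx1); 9 did with the scaffold alignment, 1 with eBayes without trend, and 0 in males only, without null replicate 1 and without null replicate 3, so that these 3 rises were lost there. The cause of these changes was not tested. Detection calls were not used, so a dim probe set has only its level. No paired analysis was possible because the labels give no replicate numbers, and the numbers used here are only names.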

Other observations

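Over the 6 mice, the genes outside the group whose log2 values followed those of Lct most closely were Jtb (Pearson's r 0.995), Atm (0.993) and Bcl7c (0.992), of 6805 probe sets compared, 55 of which had an r over 0.95. The points share 6 arrays and a genotype split, so this is a description. The 3 genes shared the order of the nulls with Lct in that null replicate 2 was highest, as for Jtb at 1833, 2319 and 1861 in null replicates 1 to 3, but their differences were small, at log2 differences of -0.37, -0.81 and -0.26, and none passed.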
